A study of Saccharomyces cerevisiae with 25 samples.

Results

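The first wave of change in a culture of budding yeast without phosphate was described from 4 libraries taken at 120, 135, 150 and 165 min, set against the 3 taken at 75, 90 and 105 min. The genes compared were those with a value in all 7 libraries, which were 4933 of the 6650 named genes of the matrix. In the later window 95 genes (1.93%) rose and 9 (0.182%) fell. The rises were led by the PHO regulon, in which 16 of 17 measured members rose, and the falls by iron uptake genes.

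All libraries came from 1 culture of Saccharomyces cerevisiae in the laboratory background BY4741, labelled as a VIP1 deletion (delta-vip1) with a YFP reporter driven by the promoter of PHO84 (pho84pr-YFP). RNA-seq libraries were made from total RNA, 1 at 0 min in high-phosphate medium and 24 without phosphate, 1 every 15 min for 6 h. Consecutive times stood in for replicates. Each p-value therefore sets the difference between windows against the spread between neighbouring times of 1 culture, a spread drawn towards that of other genes. Drift in time cannot be told apart from scatter. Levels are shares of a library in reads per 1000000 (RPM), so a lower level can mean less of one transcript or more of the others.

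Depth in the 7 libraries was 1094061 to 4162690 reads, with the deepest at 165 min. VIP1 was listed in all 7 at 16.6 to 28.3 RPM, or 20 to 105 reads, which goes against the label, and the strain is therefore called the strain labelled delta-vip1. The labels do not say which bases of the gene were removed. Of the genes deleted in BY4741, MET17, LEU2 and HIS3 had a value in 0 of the 7 libraries, and URA3 in 4 of them at 4.13 to 10.3 RPM. The MATa genes MFA1, MFA2 and STE2 were listed in all 7. Of the MATalpha genes, MF(ALPHA)2 was listed in 0, MF(ALPHA)1 in 4 at 5.54 to 9.13 RPM, SAG1 in 6 at 9.12 to 11.1 RPM and STE3 in 7 at 22.5 to 38.4 RPM. No sample of a strain with VIP1 was analysed here.

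When phosphate is plentiful, the cyclin-dependent kinase Pho85 with its cyclin Pho80 phosphorylates the transcription factor Pho4 and keeps it out of the nucleus. When phosphate runs short, the inhibitor Pho81 holds this kinase back, and Pho4 with its partner Pho2 switches on genes for taking up, releasing and storing phosphate. Vip1 makes an inositol pyrophosphate that has been proposed to act on Pho81. Pho4 recognises the motif CACGTG and, less strongly, CACGTT.

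Stretches of promoter are shown for some of the genes that led the rises, chosen because they hold the motifs by which the PHO regulon is usually recognised. CBF1 is shown with them although it is not in the PHO list. All are from the R64 genome, 5′ to 3′ on the coding strand, and capitals mark CACGTG and CACGTT on either strand (CACGTT reads AACGTG on the other one). Positions count back from the first base of the coding sequence.
SPL2 (chrVIII:375120-375280, minus strand, -180 to -20): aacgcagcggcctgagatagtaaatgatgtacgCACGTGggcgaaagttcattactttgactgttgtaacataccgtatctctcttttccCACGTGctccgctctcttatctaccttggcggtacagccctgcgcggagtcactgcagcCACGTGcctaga
PHO84 (chrXIII:26050-26260, minus strand, -460 to -250): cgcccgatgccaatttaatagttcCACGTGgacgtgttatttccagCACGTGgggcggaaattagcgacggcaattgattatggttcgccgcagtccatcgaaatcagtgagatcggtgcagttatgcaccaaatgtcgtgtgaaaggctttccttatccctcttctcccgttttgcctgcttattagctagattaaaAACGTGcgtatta
PHO5 (chrII:431181-431331, minus strand, -380 to -230): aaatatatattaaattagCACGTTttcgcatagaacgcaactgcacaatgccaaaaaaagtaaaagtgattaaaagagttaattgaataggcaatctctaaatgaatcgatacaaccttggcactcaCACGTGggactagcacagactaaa
VTC3 (chrXVI:517278-517378, minus strand, -360 to -260): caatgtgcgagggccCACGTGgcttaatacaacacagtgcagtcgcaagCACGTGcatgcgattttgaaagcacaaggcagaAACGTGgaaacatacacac
VTC4 (chrX:413489-413549, minus strand, -150 to -90): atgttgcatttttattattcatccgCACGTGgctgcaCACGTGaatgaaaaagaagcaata
CBF1 (chrX:548559-548629, plus strand, -200 to -130): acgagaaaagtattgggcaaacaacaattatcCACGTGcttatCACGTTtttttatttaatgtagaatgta
SPL2 held CACGTG at -147, -90 and -31 in this stretch and once more at -361. PHO84 held it at -436 and -414, VTC3 at -345 and -311, and VTC4 at -125 and -113. PHO5 held 1 match of each motif, CACGTT at -362 and CACGTG at -253, and CBF1 held CACGTG at -168 and CACGTT at -157.

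In the 500 bases before the coding sequence, CACGTG was found in 14 of the 17 measured PHO regulon genes (82.4%), against 374 of 6000 coding genes (6.23%). CACGTT was found in 11 of the 17 (64.7%), against 961 of 6000 coding genes. PHO8 and PHM8, which rose, held CACGTT but no CACGTG, and PPN1 held neither. The PHO list is of genes under Pho4, so a high share is built in and is not a result of these data. Among the 70 genes that rose outside the PHO and amino acid lists and have a promoter in the annotation, 14 held CACGTG. A match of letters is a description of the promoter and does not show that a factor was bound there.

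Phosphate carriers and their regulators come first. PHO84, the high-affinity proton-coupled phosphate transporter, was at 153, 207 and 389.7 RPM at 75, 90 and 105 min and at 598, 672, 739 and 964 RPM from 120 to 165 min. Every later library lay above every earlier one, and the earlier window was itself climbing. The difference was 1.66 (log2 scale, SE 0.19, adjusted p = 1e-05), a 3.16-fold rise. A noncoding gene is annotated on the opposite strand over PHO84, and without a stated strand setting their reads cannot be told apart. PHO89, the sodium-coupled phosphate transporter, had levels of 60.0, 60.5 and 76.9 RPM in the earlier libraries and 130.2, 170.0, 219 and 365 RPM in the later ones, in order of time, a rise of 1.65 (log2 scale, SE 0.21, adjusted p = 1.9e-05). Its first 2 libraries were level and the climb began at 105 min.

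SPL2, a small protein that lowers low-affinity phosphate uptake, stood at 74.3, 115 and 245 RPM in the 3 earlier libraries and at 449.5, 441, 658 and 804 RPM in the 4 later ones. Its earlier window already spanned a more than 3-fold climb, its windows did not overlap, and it rose by 2.15 (log2 scale, SE 0.25, adjusted p = 8.7e-06). PHO86, which brings Pho84 out of the endoplasmic reticulum, rose by 0.90 (log2 scale, SE 0.12, adjusted p = 2.9e-05). PHO81, the inhibitor of the Pho80-Pho85 kinase, was at 84.4, 94.3 and 139.6 RPM at 75, 90 and 105 min and at 148, 175, 211 and 211 RPM from 120 to 165 min. Its windows did not overlap, although 105 and 120 min were close together, and it rose by 0.83 (log2 scale, SE 0.15, adjusted p = 0.0009).

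The secreted acid phosphatases release phosphate from organic sources outside the cell. PHO5 had levels of 308, 323 and 417 RPM in the earlier libraries and 822, 1083, 1510.3 and 2131 RPM in the later ones, in order of time. It was nearly level at 75 and 90 min and climbed at every later time, and it rose by 1.91 (log2 scale, SE 0.19, adjusted p = 1.8e-06), 3.76-fold. PHO11 rose by 2.23 (log2 scale, SE 0.20, adjusted p = 2.8e-07), and PHO12 rose 4.01-fold. PHO5, PHO11 and PHO12 held fractional reads, taken as reads divided between similar genes, so the split among them is uncertain.

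Inside the cell, PHO8, the alkaline phosphatase of the vacuole, stood at 27.0, 35.1 and 39.5 RPM in the 3 earlier libraries and at 73.0, 80.4, 80.5 and 105 RPM in the 4 later ones. It stood apart between windows and rose by 1.33 (log2 scale, SE 0.16, adjusted p = 1e-05). PHM8, a phosphatase that releases phosphate from nucleotides and lysophosphatidic acid, was at 61.5, 68.8 and 86.4 RPM at 75, 90 and 105 min and at 106, 203, 231 and 277 RPM from 120 to 165 min. PHM8 took its step 1 library later than PHO8, between 120 and 135 min, and rose by 1.43 (log2 scale, SE 0.20, adjusted p = 9.8e-05). HOR2, a glycerol-phosphate phosphatase, rose by 0.71 (log2 scale, SE 0.14, adjusted p = 0.0025), a call that was lost without the 165 min library.

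The VTC complex makes polyphosphate and moves it into the vacuole, and its 4 core subunits all rose. VTC3 had levels of 289, 394 and 624 RPM in the earlier libraries and 1051, 1111, 1311 and 1475 RPM in the later ones, in order of time. VTC1 stood at 469, 645 and 923 RPM in the 3 earlier libraries and at 1441, 1712, 1898 and 2339 RPM in the 4 later ones. VTC4 was at 215, 294 and 385 RPM at 75, 90 and 105 min and at 599, 768, 787 and 1054 RPM from 120 to 165 min. In all 3 genes the windows were separate and the level climbed through both. The rises were 1.56 (log2 scale, SE 0.16, adjusted p = 2.1e-06) for VTC3, 1.48 (log2 scale, SE 0.16, adjusted p = 3.2e-06) for VTC1 and 1.44 (log2 scale, SE 0.15, adjusted p = 3.2e-06) for VTC4, and VTC2 rose by 0.94 (log2 scale, SE 0.14, adjusted p = 0.00014). PHM6, a gene of unknown function in the PHO regulon, rose by 1.51 (log2 scale, SE 0.18, adjusted p = 1.1e-05). PPN1, a vacuolar polyphosphatase, had levels of 125, 119 and 141 RPM in the earlier libraries and 145, 158, 155 and 159.8 RPM in the later ones, in order of time. It was the measured member that was not called, at 0.27 (log2 scale, SE 0.10, adjusted p = 0.12).

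**Figure D1:**
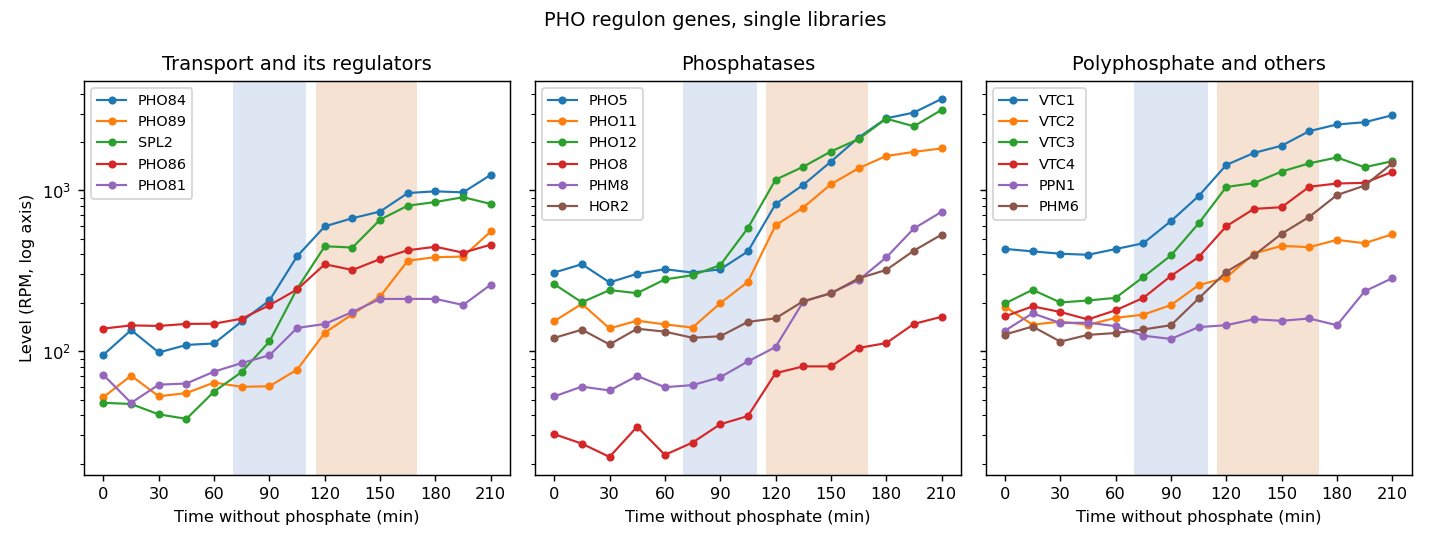
Level of PHO regulon genes in RPM on a log axis against time without phosphate in min, 1 point per library and no error bars since each time had 1 library, with the 75 to 105 min window shaded blue and the 120 to 165 min window shaded orange. PHO84 went from 153 RPM at 75 min to 964 RPM at 165 min, while PPN1 stayed between 119 and 159.8 RPM.

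Across the list, 16 of 17 measured members rose and 0 fell, with a median log2 change of 1.48. Over all 4933 genes 1.93% rose and 0.182% fell (2.11% either way), with a median log2 change of 0.08. All 17 members had every later library above every earlier one, a pattern held by 13.2% of all genes. Of the 20 genes listed, GIT1 had a value in 5 of the 7 libraries, PHM7 in 3 and CTF19 in 0, and they were not tested. The list was put together with knowledge that these genes rise late in this culture, so its direction is not independent evidence. The summed share of reads of the list was 0.289%, 0.355% and 0.518% at 75, 90 and 105 min and 0.844%, 1.01%, 1.22% and 1.52% at 120, 135, 150 and 165 min. It had been 0.243% to 0.272% from 0 to 60 min, so it climbed at each of these 7 times.

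Between neighbouring libraries from 75 to 165 min, the largest single step up ended at 120 min for 9 of the 16 PHO genes that rose, at 105 min for 4 and at 135 min for 3. It ended at 120 min for 53 of all 95 genes that rose and for 1027 of all 4933 genes. Genes were called for a difference across the 105 to 120 min border, a choice that itself favours a step there, so these counts describe the called genes and do not date the change.

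None of the genes for Pho4, its partner or the Pho80-Pho85 kinase passed the test. PHO4 stood at 52.1, 48.1 and 64.8 RPM in the 3 earlier libraries and at 58.1, 59.4, 65.8 and 69.2 RPM in the 4 later ones, and its windows overlapped. The log2 changes of PHO4, PHO2, PHO85 and PHO80 were 0.21 (SE 0.14), 0.03 (SE 0.22), 0.29 (SE 0.16) and 0.23 (SE 0.21), none of them called. The low-affinity carriers PHO87 and PHO90 had log2 changes of -0.48 (SE 0.18) and -0.24 (SE 0.14), and the vacuolar carrier PHO91 0.25 (SE 0.12), also not called. A p-value that misses the threshold does not show that these genes were level.

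In this list of regulators and carriers 4 of 18 measured genes rose and 0 fell, against 1.93% and 0.182% of all genes. The median log2 change was 0.22. The 4 act on inositol phosphates, polyphosphate, phospholipids or phospholipid breakdown products. DDP1, which removes phosphates from inositol pyrophosphates and polyphosphate, was at 61.9, 77.6 and 75.3 RPM at 75, 90 and 105 min and at 109, 119, 167 and 167 RPM from 120 to 165 min. Its windows were separate and it rose by 0.96 (log2 scale, SE 0.14, adjusted p = 0.00016). GDE1, which splits glycerophosphocholine taken up from the medium, rose by 0.86 (log2 scale, SE 0.14, adjusted p = 0.00047). YNL217W (PPN2), a polyphosphatase of the vacuole, rose by 0.70 (log2 scale, SE 0.14, adjusted p = 0.0037), and PLC1, the phospholipase C that starts inositol phosphate synthesis, by 0.59 (log2 scale, SE 0.12, adjusted p = 0.004). The call of YNL217W was lost without the 75 min library, and that of PLC1 without the 90 or the 165 min library. KCS1, the other inositol pyrophosphate kinase, was at a log2 change of 0.54 (SE 0.16) and was not called, nor was VIP1 at -0.10 (SE 0.21).

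**Figure D2:**
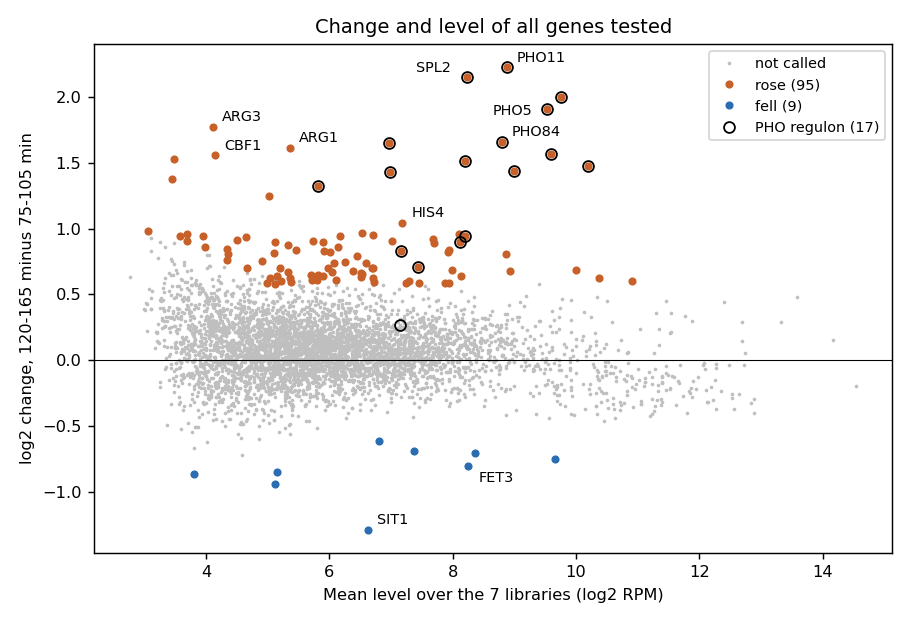
The log2 change of each of the 4933 genes, 120 to 165 min minus 75 to 105 min, against its mean log2 RPM over the 7 libraries, with orange points for the 95 genes that rose, blue points for the 9 that fell and black rings for the 17 PHO regulon genes. The rings sit among the largest changes, from 0.71 to 2.23 for those that rose, and PPN1 lies at 0.27.

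A small group of amino acid genes rose, with 2 arginine genes at the top. Gcn4 is the activator of amino acid synthesis genes and recognises TGACTC. In its list 7 of 45 measured genes rose and 0 fell, against 1.93% and 0.182% of all genes. The median log2 change was 0.19, and 18 had all later libraries above all earlier ones, against 13.2% of all genes. ARG1, argininosuccinate synthase, had levels of 21.0, 21.3 and 22.6 RPM in the earlier libraries and 43.1, 75.0, 66.4 and 89.6 RPM in the later ones, in order of time. It was level over the earlier window and had reached more than 3 times that level by 135 min, and it rose by 1.61 (log2 scale, SE 0.19, adjusted p = 1.1e-05). ARG3, ornithine carbamoyltransferase, stood at 7.50, 8.32 and 10.0 RPM in the 3 earlier libraries and at 24.9, 26.5, 35.1 and 31.7 RPM in the 4 later ones. Its reads were few in the earlier window, with 18 in the lowest library, and it rose by 1.78 (log2 scale, SE 0.22, adjusted p = 1.5e-05). Its levels at 75 and 90 min lay under the lowest value listed at 135 min (9.14 RPM), so needing a value in all 7 libraries favoured a rise.

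HIS4, a histidine synthesis enzyme, was at 85.5, 94.7 and 109.5 RPM at 75, 90 and 105 min and at 148, 191, 211 and 258 RPM from 120 to 165 min. It climbed from each library to the next and rose by 1.04 (log2 scale, SE 0.14, adjusted p = 3.3e-05). ARG5_6, which makes an arginine precursor, rose by 0.90 (log2 scale, SE 0.20, adjusted p = 0.0083), HIS1 by 0.69 (log2 scale, SE 0.08, adjusted p = 1.3e-05), ARG4 by 0.60 (log2 scale, SE 0.13, adjusted p = 0.0066) and SER33, a serine synthesis enzyme with fractional reads, by 0.67 (log2 scale, SE 0.14, adjusted p = 0.0051). The call of ARG5_6 was lost without the 90 min library and that of SER33 without the 75 min library. The call of ARG4 was lost when any 1 of the 75, 135, 150 and 165 min libraries was left out. ARO9, an aromatic aminotransferase outside the list, rose by 1.25 (log2 scale, SE 0.19, adjusted p = 0.00016). From 180 to 210 min ARG1 was at 77.7, 52.9 and 42.8 RPM and ARG3 at 26.2 and 16.9 RPM with no value at 210 min. ARO9 was at 55.2, 75.1 and 82.6 RPM at these times.

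TGACTC was found in the 500 bases before the coding sequence of all 7 list genes that rose. It was found before 34 of the 45 measured list members (75.6%), against 12.7% of coding genes. The list is of genes under Gcn4, so a high share is built in and is not a result of these data. The stretches of the 3 largest rises are shown with TGACTC or its other strand, GAGTCA, in capitals.
ARG1 (chrXV:218851-218951, plus strand, -360 to -260): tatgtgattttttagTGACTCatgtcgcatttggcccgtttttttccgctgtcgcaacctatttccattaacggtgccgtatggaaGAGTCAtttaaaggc
ARG3 (chrX:268469-268509, plus strand, -330 to -290): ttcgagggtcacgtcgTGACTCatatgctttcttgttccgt
HIS4 (chrIII:68523-68603, minus strand, -270 to -190): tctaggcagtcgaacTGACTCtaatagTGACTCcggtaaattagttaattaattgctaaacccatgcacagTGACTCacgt
HIS4 held TGACTC at -255, -243 and -199, ARG1 at -345 and -274, and ARG3 at -314 in this stretch and at -438.

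Iron uptake genes led the falls. Aft1 is the activator of iron uptake genes and recognises a site with the core GCACCC. In its list 5 of 18 measured genes fell and 0 rose, against 0.182% and 1.93% of all genes. The median log2 change was -0.37, and 8 had all later libraries below all earlier ones, a pattern held by 4.4% of all genes. SIT1, a transporter of iron bound to siderophores, had levels of 192, 181 and 130.1 RPM in the earlier libraries and 95.4, 67.6, 60.7 and 53.3 RPM in the later ones, in order of time. It went down from each library to the next, and it fell by 1.29 (log2 scale, SE 0.16, adjusted p = 1.6e-05).

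FET3, the copper oxidase of high-affinity iron uptake, stood at 442, 425 and 386 RPM in the 3 earlier libraries and at 331, 227, 216 and 202 RPM in the 4 later ones. FTR1, the iron permease that works with it, was at 479, 437 and 400.2 RPM at 75, 90 and 105 min and at 286, 275, 252 and 261 RPM from 120 to 165 min. Both had separate windows, with the drop of FTR1 between 105 and 120 min and that of FET3 between 120 and 135 min. FET3 fell by 0.80 (log2 scale, SE 0.12, adjusted p = 0.00019), and FTR1 fell by 0.71 (log2 scale, SE 0.09, adjusted p = 1.5e-05). FRE1, a reductase of iron and copper at the cell surface, fell by 0.85 (log2 scale, SE 0.19, adjusted p = 0.0083), and FIT2, a cell wall mannoprotein that holds siderophore iron, fell by 0.94 (log2 scale, SE 0.23, adjusted p = 0.017). AFT1 itself was at a log2 change of -0.07 (SE 0.14). The count of 5 became 3 when the 75 min library or the 90 min library was left out, each of which ended the calls of FRE1 and FIT2. The call of FIT2 was also lost without the 150 min library. Of the 30 genes listed, 12 lacked a value in at least 1 of the 7 libraries and were not tested.

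GCACCC was found before 4 of the 5 genes that fell and before 14 of the 18 measured list members (77.8%), against 7.62% of coding genes. Here too the list is of genes under Aft1, so a high share is built in. Stretches of the largest fall and of the oxidase are shown with GCACCC or its other strand, GGGTGC, in capitals.
SIT1 (chrV:27447-27497, plus strand, -210 to -160): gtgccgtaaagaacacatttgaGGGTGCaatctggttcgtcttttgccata
FET3 (chrXIII:388552-388592, plus strand, -270 to -230): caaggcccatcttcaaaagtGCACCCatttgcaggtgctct
The matches lay at -188 in SIT1 and at -250 in FET3, which held another at -380.

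The other 4 falls were mixed. CWP1, a cell wall mannoprotein, had levels of 266, 221 and 176 RPM in the earlier libraries and 146, 145, 131 and 119 RPM in the later ones, in order of time, a steady descent, and it fell by 0.69 (log2 scale, SE 0.12, adjusted p = 0.00083). YGP1, a secreted glycoprotein of stressed cells, fell by 0.62 (log2 scale, SE 0.17, adjusted p = 0.036). FIG4, a lipid phosphatase of the vacuole, fell by 0.87 (log2 scale, SE 0.24, adjusted p = 0.036) from few reads (10 in the lowest library). With 1 library left out, YGP1 kept its call in 2 of 7 fits (those without 120 or 135 min) and FIG4 in 2 of 7 (those without 120 or 165 min). CWP1 lost its call without the 75 min library. YLR154C-G, which lies over the ribosomal RNA genes and had fractional reads, stood at 1104, 1284 and 917 RPM in the 3 earlier libraries and at 608, 1047, 763 and 360.5 RPM in the 4 later ones. Its windows overlapped, and it fell by 0.75 (log2 scale, SE 0.20, adjusted p = 0.031), a call lost without the 75, 90 or 165 min library.

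**Figure D3:**
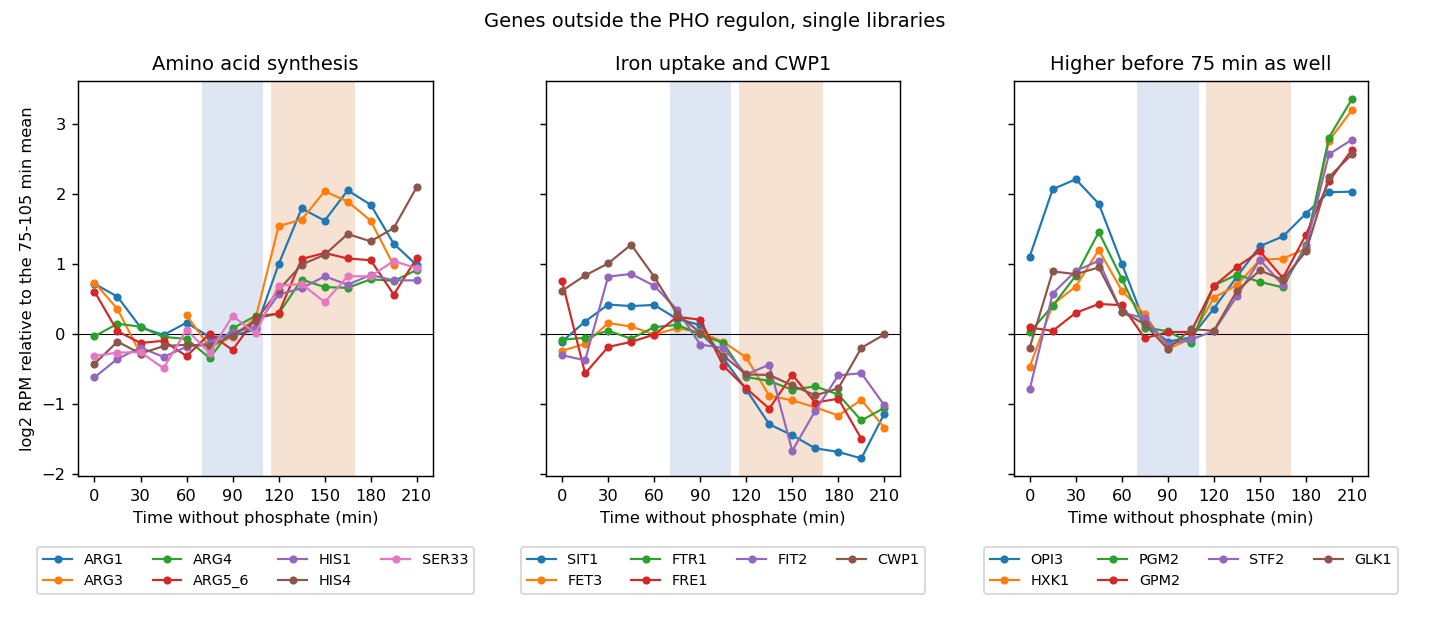
Log2 RPM relative to the mean of the 75 to 105 min libraries against time without phosphate in min, 1 point per library, for amino acid genes that rose, for iron uptake genes and CWP1 that fell, and for genes that rose after a higher level before 75 min, with the windows shaded blue (75 to 105 min) and orange (120 to 165 min). SIT1 ended the orange window at 53.3 RPM after 192 RPM at 75 min, and OPI3 at 494 RPM had been at 870.0 RPM at 30 min.

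Genes of sugar breakdown rose by smaller amounts than the leading PHO genes. In glycolysis and fermentation 6 of 25 measured genes rose and 0 fell, against 1.93% and 0.182% of all genes. The median log2 change was 0.36, and 18 had all later libraries above all earlier ones, against 13.2% of all genes. Of the 25, 8 had fractional reads. ADH5, an alcohol dehydrogenase, rose by 0.90 (log2 scale, SE 0.13, adjusted p = 0.00016), PYK2, the minor pyruvate kinase, by 0.83 (log2 scale, SE 0.15, adjusted p = 0.0011), and HXK1, a hexokinase, by 0.84 (log2 scale, SE 0.13, adjusted p = 0.00019). ENO1, TDH2 and GLK1 had log2 rises of 0.81, 0.60 and 0.59, and ENO1 and TDH2 had fractional reads. GLK1 overlaps another annotated gene, YCL042W, on its strand, and its windows overlapped. The call of GLK1 was lost without any 1 of the 90, 135, 150 and 165 min libraries, and that of TDH2 without the 75 or 165 min library. YFR052C-A, which had nearly the same values as HXK1 (213 and 214 RPM at 75 min), cannot be told apart from it here. GPM2, a glycolysis paralogue outside the list, and TYE7, a regulator of glycolysis genes, had log2 rises of 0.91 and 0.82.

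In the TCA cycle 2 of 21 rose. Over all genes 1.93% rose and 0.182% fell, the shares to set beside each count in this paragraph. ACO1, aconitase, was at 222, 182 and 183 RPM at 75, 90 and 105 min and at 252, 325, 345 and 337 RPM from 120 to 165 min, and it rose by 0.68 (log2 scale, SE 0.11, adjusted p = 0.00028). SDH1, a succinate dehydrogenase subunit, rose by 1.38 (log2 scale, SE 0.26, adjusted p = 0.0017), but with 11 reads in its lowest library. At 7.88, 5.08 and 6.32 RPM from 75 to 105 min, SDH1 lay under the lowest values listed at 120 and 135 min (8.29 and 9.14 RPM). It could be tested only if it was higher at those times, so its call is not evidence of a rise. In trehalose and glycogen metabolism 3 of 21 rose, the glycogen-degrading enzymes GPH1 (log2 change 0.66) and GDB1 (0.95) and the phosphoglucomutase PGM2 (0.74). In the general stress list 5 of 40 rose (HXK1, PGM2, GLK1, the protease inhibitor TFS1 and the peroxiredoxin PRX1), 1 fell (YGP1), and the median log2 change was 0.27. The call of GDB1 was lost without the 90, 150 or 165 min library and that of PRX1 without the 90 or 150 min library. At 90 min GDB1 (7.39 RPM) also lay under the lowest values listed at 120 and 135 min, so needing a value in all 7 libraries favoured a rise.

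Purine synthesis had 2 rises among 12 measured genes. Over all genes 1.93% rose, the share to set beside each count in this paragraph. ADE17, which closes the purine ring, had levels of 88.2, 83.6 and 102 RPM in the earlier libraries and 132, 154, 193 and 215 RPM in the later ones, in order of time, and it rose by 0.91 (log2 scale, SE 0.13, adjusted p = 0.00016). ADE12, which turns IMP towards AMP, rose by 0.89 (log2 scale, SE 0.10, adjusted p = 1e-05). SDT1, a pyrimidine nucleotidase of the salvage list, rose by 0.97 (log2 scale, SE 0.13, adjusted p = 3.1e-05), and with PHM8 it made 2 rises among 15. In the sulfur list 2 of 22 rose, SAM2, an S-adenosylmethionine synthase with fractional reads, at a log2 change of 0.92, and MET5, a sulfite reductase subunit, at 0.61 with windows that overlapped. In the vitamin list SNZ1 and SNZ2, vitamin B6 synthesis genes, had log2 rises of 0.79 and 0.82, and SNZ2 had fractional reads. The call of MET5 was lost without the 75, 90, 150 or 165 min library and that of SNZ2 without the 75 min library.

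CBF1, a factor that recognises CACGTG at centromeres and at sulfur genes, stood at 11.6, 7.85 and 9.48 RPM in the 3 earlier libraries and at 19.1, 36.6, 29.4 and 30.5 RPM in the 4 later ones. It was low in the earlier window, with 17 reads in its lowest library, and separate in the later one, and it rose by 1.56 (log2 scale, SE 0.24, adjusted p = 0.00022). BUD19 rose by 1.53 (log2 scale, SE 0.30, adjusted p = 0.0031) from 10 reads in its lowest library, and was not matched to the R64 annotation. At 7.13, 6.01 and 5.27 RPM from 75 to 105 min, BUD19 lay under the lowest values listed at 120 and 135 min (8.29 and 9.14 RPM). It could be tested only if it was higher at those times, so its call is not evidence of a rise. ATG22, a transporter of the vacuole active after autophagy, had a log2 rise of 0.95 and passed with any 1 library left out. ATG7, an enzyme of autophagy, had a log2 rise of 0.86 but kept its call in 2 of 7 such fits, those without 120 or 165 min. They were the 2 rises among 24 measured genes of their list, where 1.93% of all genes rose.

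Ribosomal protein genes were nearly all lower without any passing the call. Among 138 measured genes, 134 had a log2 change below 0, 0 rose and 0 fell by limma, and 78 were lower and 2 higher at an unadjusted p under 0.05, against 4.54% and 14.3% of all genes. The median log2 change was -0.22, and 68 had all later libraries below all earlier ones, against 4.4% of all genes. With no minimum on the size of the change, 39 of the 138 passed as lower by limma and 1 as higher, against 1.36% and 4.62% of all genes. Fractional reads were held by 108 of the 138, against 286 of all 4933 genes, so these counts treat similar genes with divided reads as separate. For the 138 genes, the summed share below does not depend on how reads were divided among them. Their summed share of reads was 36.9%, 37.1% and 36.2% at 75, 90 and 105 min and 34.5%, 31.7%, 31.1% and 28.4% from 120 to 165 min. The later 4 lay below the earlier 3, with means of 31.4% ± 2.50 (SD, n = 4) and 36.7% ± 0.50 (SD, n = 3). The difference of -5.31 percentage points had p = 0.0571 by a two-sided exact permutation test over 35 assignments, which is the smallest p this design allows. In ribosome biogenesis 0 of 76 genes were called by limma, with a median log2 change of -0.07. At an unadjusted p under 0.05, 12 of the 76 were lower, against 4.54% of all genes, and 2 passed as lower with no minimum size.

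**Figure D4:**
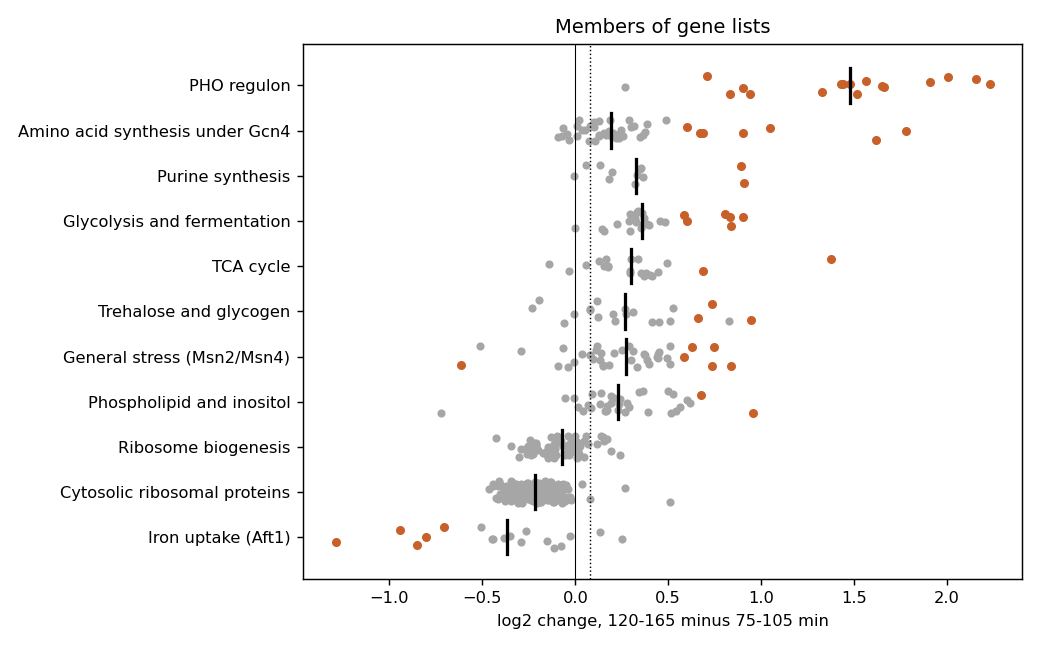
The log2 change, 120 to 165 min minus 75 to 105 min, of each measured member of 11 gene lists, with called genes in orange, other genes in grey, the median of each list as a black bar and the median of all genes as a dotted line at 0.08. The PHO regulon has its bar at 1.48, the ribosomal proteins at -0.22 and the iron uptake genes at -0.37.

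Part of the rises brought genes back towards levels they had held before 75 min. Of the 95 genes that rose, 92 had values at all 4 times from 15 to 60 min, and in 58 of these every library of 120 to 165 min lay above every library of 15 to 60 min. In 20 of the 92 the 75 to 105 min libraries all lay below the 15 to 60 min libraries, so the rise began from a dip. In 18 of those 20 the later window was not wholly above the 15 to 60 min levels. These counts were chosen after the values were seen and have no test of their own. The genes were called for low 75 to 105 min values beside high later ones, which itself favours both patterns. No share over all genes was counted, so the counts describe the called genes and do not set them apart.

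OPI3, which completes phosphatidylcholine synthesis, shows the pattern. It was at 405 RPM at 0 min and 789, 870.0, 684 and 378 RPM from 15 to 60 min, and then was at 209.7, 175 and 182 RPM at 75, 90 and 105 min and at 242, 332, 449 and 494 RPM from 120 to 165 min. It rose by 0.96 (log2 scale, SE 0.16, adjusted p = 0.00047), yet ended the later window below its level at 15, 30 and 45 min. ITR1, the inositol transporter, with 1181 RPM at 15 min and 360.1 RPM at 75 min, rose by 0.68 (log2 scale, SE 0.11, adjusted p = 0.00039) to no more than 718 RPM. HXK1, PGM2, GPH1, TFS1, ENO1, TDH2 and GLK1 were also among the 20. No PHO regulon gene was. Of the 9 falls, 7 lay wholly below the 15 to 60 min levels, among them all 5 of the iron list. The falls were called for low later values, which favours this pattern, and no share over all genes was counted.

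The next window, 180, 195 and 210 min, shows which movements went on. In a fit of 10 libraries and 4739 genes, each gene's change from 120-165 to 180-210 min was set against its change from 75-105 to 120-165 min. For 0 genes did the 2 changes differ by limma (0.0% called), with 497 at an unadjusted p under 0.05 and a smallest adjusted p of 0.275. Without the 180 min library the count was 534. Since both changes use the 120 to 165 min libraries, they are given side by side and not correlated.

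The median log2 change of the PHO list was 1.48 in the first step and 0.59 in the second, in which 8 of its 17 genes passed as higher, against 9.85% of all genes (17.8% in either direction). SPL2 was at 0.59 in the second step and VTC3 at 0.29 on the log2 scale, neither called, after 2.15 and 1.56. PHO5, PHM6 and PHM8 gained a further 1.28, 1.30 and 1.51, all called by limma. ARG1 was at -0.24, not called. Over the 17 iron genes with values in the 10 libraries, the median was -0.35 in the first step and 0.16 in the second. In the second step 13 of these 17 were above 0, against 3229 of all 4739 genes, and 0 were called by limma in either direction. SIT1, FET3 and FTR1 were at -0.24, -0.34 and -0.34 and FIT2 at 0.22. Of all 8 genes that fell and had values in the 10 libraries, 5 were above 0, against the same 3229 of 4739. The median of the 8 was 0.14, and FIG4 at 1.22 was called higher. The stress list had medians of 0.27 and then 1.11, the ribosomal protein list -0.22 and then -0.87, and ribosome biogenesis -0.07 and then -0.89. Over all genes the medians were 0.08 and 0.18.

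**Figure D5:**
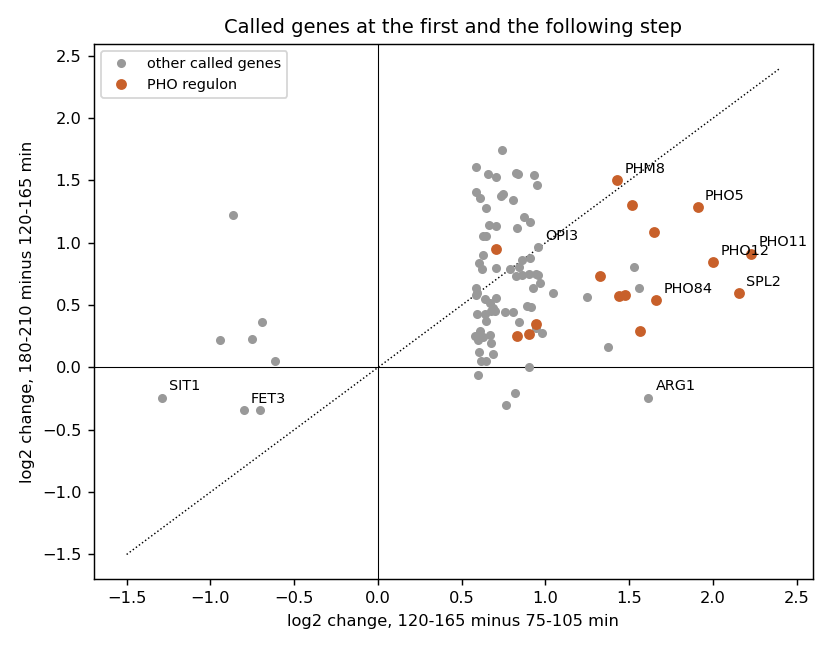
The log2 change from 120-165 to 180-210 min against the log2 change from 75-105 to 120-165 min, 1 point per called gene with values in all 10 libraries, PHO regulon genes in orange, others in grey, and the dotted line where both changes are equal. SPL2 lies at 2.15 and 0.59, PHM8 at 1.43 and 1.51, and ARG1 at 1.61 and -0.24.

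A gene was called at a limma adjusted p below 0.05 with a log2 change of 0.58 or more in size. Of the 104 genes called, 98 had windows that did not overlap, and 928 of 4933 genes were at an unadjusted p under 0.05. Leaving out the library of 90 min gave 62 calls, and leaving out that of 120 min gave 164. Of the calls, 91.3% were higher, and with each library centred on its median 80.0% were higher (60 of 75). The 9 falls became 3 if 75 min was left out and 4 if 90 min was.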

How the data were processed

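Per the labels' protocols, cells were lysed in 96-well plates, a column kit gave the RNA, and Illumina sequencing was done on cDNA. Per the submitters' processing notes, Bowtie and the build R64 were used. The sources used here do not give how reads were counted or with which annotation and strand setting. Each deposited value is the log2 of RPM, a gene's reads scaled to a library of 1000000. Reads were recovered by taking the lowest listed value as 10 reads, after which 94.1% of values lay within 0.01 of a whole number. Values under that floor are blank, so no count test was run. Where a gene had fractional reads, sharing with a similar gene was assumed and not traced.

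Window means of the 7 libraries were compared with limma 3.58.1 (R 4.3.3), its variance trend switched on, with Benjamini-Hochberg adjustment over 4933 genes. Calls took an adjusted p below 0.05 and a log2 change of 0.58 or more in size. SE is its standard error. The median residual SD was 0.18. The variance of each gene had 5 residual degrees of freedom and was combined with a trend over all genes worth 17.1 prior degrees of freedom. The procedure was tested on simulated data with independent libraries and no drift within a window, so that test does not bear on drift in time. Names were matched to R64 for 4830 genes, and positions, promoters and motifs were read from that RefSeq genome on both strands. CACGTG and CACGTT were counted separately, and any motif may overlap another.

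The members, the 46 gene lists, the tests and the alternatives were chosen with earlier results of these data known. Named genes were the 12 largest rises and falls with separate windows and at least 30 reads on average in 1 window, all PHO list and PHO regulator genes, and up to 3 called genes in each other list. Other names (ARO9, HIS4, ARG4, ARG5_6, SER33, ENO1, TDH2, GLK1, GPM2, TYE7, AFT1, YFR052C-A, YLR154C-G) were chosen after their values were seen. Python 3.11.15, pandas 2.3.3 and matplotlib 3.10.9 made the summaries and figures.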

Additional observations from a re-analysis of the deposited data

Results flagged for a closer look

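In 100 groups of 4 libraries, 2 had a library far from the others, and chance marks about 5% of groups. CTS1, a chitinase of daughter-cell separation, was at 559 RPM at 165 min against a median of 489 RPM in the other 3 libraries of the window. The depth at 165 min was 4160000 reads against a median of 1210000 in the other 3.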

How the results depend on the processing

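The count of 104 called genes (95 higher, 9 lower) stayed within 1.5 times with most settings tried, and 52 called genes passed with each of the 7 libraries left out in turn. It was 67 (60 higher) on log2(RPM + 10), 42 (40 and 2) without a variance trend, 20 (19 and 1) with a minimum log2 change of 1, 295 (228 and 67) with no minimum and 177 (160 and 17) without the 105 and 120 min libraries. Centring on medians gave 60 higher and 15 lower. Leaving out 1 library gave 62 to 164 called, 58 to 151 higher and 3 to 13 lower. Blanks set to 5 reads, a setting chosen after seeing the data, gave 88.

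The 7 rises of the amino acid list were 3 with a minimum of 1, 11 with no minimum and 4 without a variance trend, and 5 to 7 with 1 library left out. The 5 iron falls were 3 with at least 30 reads in every library, 1 with a minimum of 1 and 2 without a variance trend, and 3 to 5 with 1 library left out. The PHO count of 16 stayed within 1.5 times throughout. The genes that differed in the next step went from 0 to 534 without the 180 min library. The cause was not tested. The ribosomal protein difference ranged from -6.34 to -4.31 percentage points with 1 library left out. No paired analysis was possible because all libraries came from 1 culture, with 1 library at each time.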
